A study of Oryza sativa Indica Group with 226 samples.

Results

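The genes described here varied reproducibly among inbred rice lines although the 2 parents of those lines had nearly the same level. They are 111 probe sets of 27735 tested, or 0.400%, and of 57381 on the array. A probe set (a set of short probes for 1 transcript) was a member if its mean over all arrays was at least 5 on the log2 scale, its replicate 1 and replicate 2 values correlated with a Pearson r of at least 0.6 over the lines, and the parental means differed by less than 0.5. The members were thus chosen by their measured mean, line variation and parental difference, which are given as description, without a test. Of the 943 probe sets that passed on mean and correlation, the members were 11.8%.

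The samples were shoots of untreated rice seedlings grown in the dark and taken 72 h after germination. For all of them, seeds were soaked for 48 h at 25 °C and pregerminated at 35 °C, and seedlings grew at 25 °C and 85% humidity. One group was 110 recombinant inbred lines of the indica varieties Minghui 63 and Zhenshan 97, with 2 biological replicates each, 220 arrays in all. The other groups were the parents themselves, Minghui 63 and Zhenshan 97, with 3 biological replicates each. Total RNA was hybridised to 1 Affymetrix Rice Genome array per replicate, and the number of plants behind a sample is not given in the sources used here. RNA of whole shoots was measured, so fewer cells of a type and less RNA per cell cannot be told apart.

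A recombinant inbred line carries a fixed mosaic of both parental genomes, and each locus is inherited from 1 parent or the other. When several loci act on a transcript in opposing directions, parents can have equal levels while their progeny spread beyond both, which geneticists call transgressive segregation. Several members belong to iron uptake and transport. In rice, iron is taken up as ferrous iron through IRT transporters and as ferric iron bound to phytosiderophores, which are made from nicotianamine.

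Array medians lay between 4.77 and 5.07 and single values between 1.16 and 14.35. RIL139 stood apart, as the line farthest from the median line for 18.0% of tested probe sets and for 14 members (12.6%). Without it, the same rule gave 112 probe sets, 107 of them members. Of the lines, 11 pairs were nearly identical over 82 segregating probe sets (r from 0.820 upward, the next pair at 0.773), which leaves 99 lines when 1 of each pair is dropped. The shoot markers gave a summed level between 13.51 and 14.66 in the lines, between 12.94 and 13.09 in Minghui 63 and between 14.21 and 14.31 in Zhenshan 97 (log2 of the sum over 5 genes). Root markers without IRT1 (Lsi1 and Pht1;8) summed to between 8.5 and 9.79 in the lines, 8.41 to 8.70 in Minghui 63 and 8.82 to 9.0 in Zhenshan 97. Lsi1 lay between 7.76 and 9.32 in the lines and Pht1;8 between 7.17 and 8.54.

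In all, 68 members had 1 annotated gene each, 68 distinct genes, and 1 more had several genes. The other 42 (37.8%) had none, against 38.4% of the tested probe sets, and 19 members (17.1%) came from the predicted-gene set of the array, named OsAffx, against 25.4% of the tested. A usable gene name was found for 10 members. These were NAS2, a nicotianamine synthase, IRT1, an iron transporter of the plasma membrane, and YSL6, of the yellow stripe-like family that carries metals bound to nicotianamine. SD1, the semidwarf gene, encodes a gibberellin 20-oxidase, and KO2 an ent-kaurene oxidase earlier in gibberellin synthesis. MADS58 encodes a MADS-box factor of floral organ identity, PSK2 a phytosulfokine precursor, XBOS35 a RING-type ubiquitin ligase of the XB3 family, HSP81-3 a chaperone of the HSP90 class and rcs1 a cysteine synthase. For 17 member genes the array held other probe sets, 26 in all, 7 of them with a mean under 5. In 22 of these 26, line means correlated with the member at an r of at least 0.6. Parental equality was not shared by all of them, since in 10 of the 26 the parents differed by 0.5 or more (Minghui 63 minus Zhenshan 97). The difference was -1.29 in another probe set of HSP81-3 (r 0.93), -0.86 in one of KO2 (r 0.89) and 1.17 in one of LOC4324944 (r 0.87).

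The range of line means (highest minus lowest) had a median of 2.25 over the members and ran from 1.06 for rcs1 to 8.91 for Os.18480.1.S1_at, a probe set without a gene. It was above 2 in 65 members, above 3 in 25, above 4 in 16 and above 5 in 10. The median range was 3.09 over the 832 other line-variable probe sets, whose parents differed by 0.5 or more, and 1.34 over all tested. In 47 members some lines lay more than 1 log2 unit above the higher parent and none that far below the lower. In 25 members lines lay that far below only, in 8 on both sides, and in 31 no line lay beyond a parent by 1. The parental means were measured with 3 arrays each. The 95% interval of the parental difference stayed within 1 log2 unit in 73 members and reached 1 in 38, with a median half-width of 0.53, so equal parents means equal within that error.

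**Figure D1:**
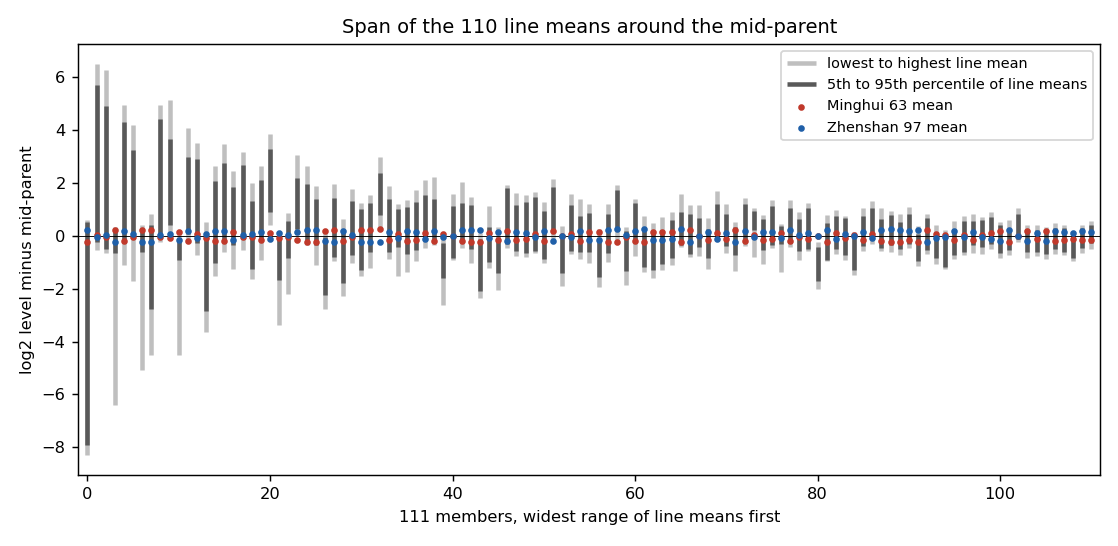
Span of the 110 line means around the mid-parent (mean of the 2 parental means, y axis in log2 units) for each of the 111 members, sorted by range on the x axis. Light bars run from the lowest to the highest line mean and dark bars from the 5th to the 95th percentile, with Minghui 63 in red and Zhenshan 97 in blue. A few members reach 6 or more units from parents that lie within 0.5 of each other.

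The members closest to the correlation limit were LOC4339550 (r 0.6004), LOC4340453 (0.6004) and OsAffx.5019.1.S1_at (0.6007). Just outside it lay APG8D, an autophagy gene (0.5994), PIN4, an auxin efflux carrier (0.5988), and ZIP1, a metal transporter (0.5977). At the limit on the parental difference (Minghui 63 minus Zhenshan 97), the members LOC4335880, SD1 and LOC4334129 stood at -0.497, -0.493 and 0.493. Outside it lay Os.14045.1.S1_s_at and LOC4333962, each at 0.50, and LOC4334946 at -0.503.

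In 3 of the widest members the lines fell into separate clusters. Os.18480.1.S1_at had line means between 2.39 and 11.30 with a median of 10.31, against 10.33, 10.26 and 10.80 in Minghui 63 and 11.10, 11.18 and 10.47 in Zhenshan 97. Its 110 lines left a gap from 6.77 to 9.81, with 19 lines below and 91 above, and both parents were above the gap. OsAffx.19820.1.S1_at was the reverse, with a gap from 4.45 to 6.19 and 44 lines above it. It measured 3.32, 3.23 and 4.09 in Minghui 63 and 3.88, 4.28 and 2.76 in Zhenshan 97, so both parents belonged to the low cluster, while line means reached 9.87. Os.17751.1.S1_at had 14 lines above a gap from 6.84 to 9.19 and 96 below. Its parental arrays lay between the 5.35 of a Minghui 63 array and the 5.58 of a Zhenshan 97 array, among the low lines. In these 3 members the parents stood together in 1 of the 2 clusters, and the other cluster held lines only. The gaps are wider than the 0.5 allowed between parental means, so the rule itself kept the parents on the same side.

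Another 3 wide members rested on 1 line. Both probe sets of the Os.47668.1 sequence and LOC9268308 on chromosome 7 were lowest in RIL084. Os.47668.1.S1_at read 3.64 in replicate 2 and 7.61 in replicate 1 of RIL084, while the next line was at 11.13 and the line median at 11.94. LOC9268308 read 4.84 and 5.95 there, in replicates 2 and 1, against a line median of 9.52. Without RIL084 the replicate correlation of Os.47668.1.S1_at was 0.375, that of Os.47668.1.S1_x_at 0.425 and that of LOC9268308 0.145. Over all members, 17 had a replicate correlation under 0.6 when each lost its own farthest line.

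**Figure D2:**
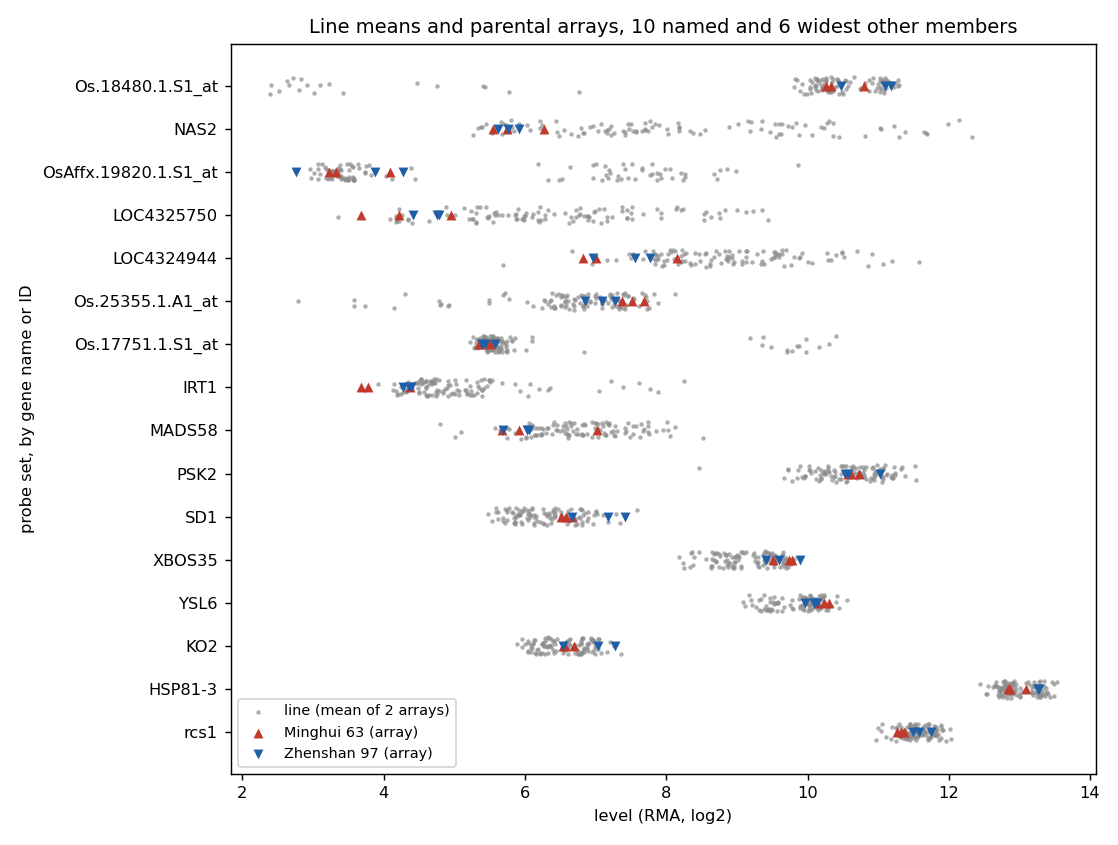
Levels (x axis, RMA values on the log2 scale) of the 10 members with a gene name and the 6 widest other members not resting on RIL084, 1 row each. Grey points are the 110 line means of 2 arrays, red triangles the 3 Minghui 63 arrays and blue triangles the 3 Zhenshan 97 arrays. For NAS2 both parents sit at the low end of the lines, and for Os.18480.1.S1_at at the high end.

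A group of 9 members varied together across the lines. Pairs of members from different genes were joined where r over the 110 lines was at least 0.7 in each replicate, which held for 25 of 6105 pairs, against a median r over all pairs of 0.004 in replicate 2 and 0.009 in replicate 1. The largest group held NAS2, IRT1, LOC4324944, LOC4325750, LOC4332187, LOC4334129, LOC4339406, OsAffx.18687.1.S1_x_at and OsAffx.6171.1.S1_at. Its 36 pairs had a median r of 0.708 in replicate 2 and 0.837 in replicate 1. The 7 placed members lie on chromosomes 1, 3 and 5, with 4 of them on chromosome 3. The group was the same 9 members without RIL139 and without RIL084.

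NAS2 had line means from 5.26 to 12.34 with a median of 7.71, against 5.55, 5.75 and 6.27 in Minghui 63 and 5.76, 5.62 and 5.92 in Zhenshan 97. This gene exceeded the higher parent by more than 1 log2 unit in 78 of 110 lines. IRT1 had line means from 3.92 to 8.25 with a median of 4.84, against 3.78, 3.68 and 4.37 in Minghui 63 and 4.39, 4.36 and 4.27 in Zhenshan 97. Most lines stayed near the parents for IRT1, and 27 lay above the higher parent by more than 1. Both IRT1 parental means were at or under the highest level of the 17 Tag controls, 4.63, which are probe sets for sequences that rice does not carry. LOC4324944 had line means from 5.69 to 11.58 with a median of 8.85, against 7.0, 6.82 and 8.15 in Minghui 63 and 7.56, 7.77 and 6.97 in Zhenshan 97. LOC4325750 had line means from 3.35 to 9.44 with a median of 6.26, against 4.21, 3.68 and 4.95 in Minghui 63 and 4.42, 4.75 and 4.79 in Zhenshan 97. In 77 lines all 9 members lay above both parents, and in 1 line none did. LOC4325750, LOC4339406, IRT1, LOC4332187 and OsAffx.18687.1.S1_x_at had both parents under 5 and passed the minimum mean only through the lines. The count of lines above both parents is thus set in part by the rule.

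A set of 5 members ran against this group. They made up 35 of the 46 pairs with an r of -0.5 or lower in both replicates. LOC4327425 on chromosome 1 and LOC4337488 on chromosome 4 each opposed 8 members of the group, LOC4339926 on chromosome 6 and LOC4336353 on chromosome 4 each 7, and OsAffx.27098.1.S1_at 5. For LOC4336353 this was read from 1 probe set. Another of that gene had a replicate correlation of 0.82, but its line means correlated with those of the member at -0.08. LOC4337488 had line means from 6.70 to 10.87 with a median of 9.22, against 10.27, 10.61 and 9.89 in Minghui 63 and 9.79, 10.67 and 10.84 in Zhenshan 97. It lay more than 1 log2 unit under the lower parent in 57 lines. Its line means correlated with those of NAS2 at -0.74, and the line means of LOC4339926 did so at -0.80 (110 lines, with both members read on the same arrays). The reference table gives these genes no name.

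**Figure D3:**
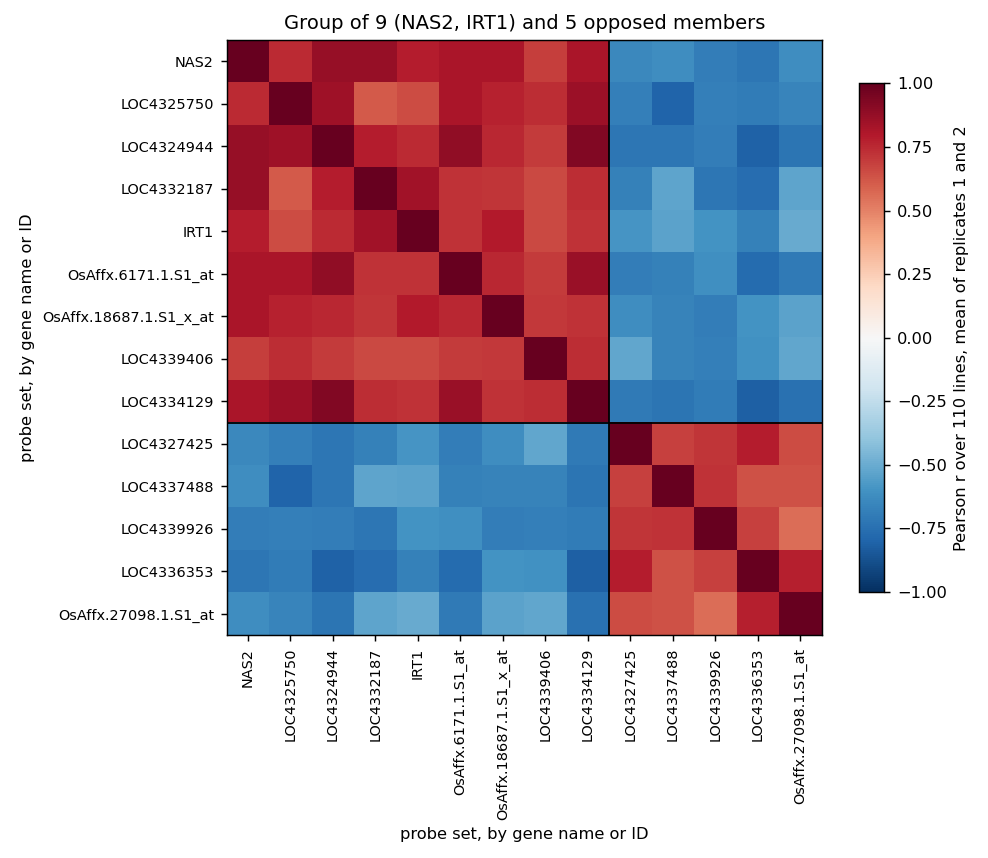
Pearson r over the 110 lines (mean of the r in replicates 1 and 2, colour scale from -1 to 1) among the 9 members grouped with NAS2 and IRT1 (upper left block) and the 5 members opposed to them (lower right block). The group is red within itself and blue against the opposed members.

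The other genes of iron uptake and chelation were read from a list matched by symbol, of which 13 were tested and 2, NAS2 and IRT1, are members. A replicate correlation of at least 0.6 was found in 7 of the 13, against 943 of all 27735 tested. This limit is that of the rule, which the 2 members had passed, and the list was chosen with these genes' behaviour known. NAS1 and IRT1, with both parents under 5, were tested only through the lines. Nothing is therefore read from the share. The line means of NAS1, a second nicotianamine synthase, correlated with those of NAS2 at 0.98, those of IRT2 at 0.90, of NAAT1, the nicotianamine aminotransferase, at 0.89 and of Nramp1, a metal transporter, at 0.81. VIT1.2, a vacuolar iron transporter, correlated at -0.72. The parents differed by 0.5 or more in all 5, so none is a member: NAAT1 by 3.07 (Minghui 63 minus Zhenshan 97) and NAS1 by 0.88. Not all listed genes followed NAS2. BHLH063 correlated with it at 0.71, but NAS3, another nicotianamine synthase, at -0.42. The values were -0.15 for osysl16, -0.14 for VIT1 and 0.02 for IDEF1. A chromosome 2 gene matched by the symbol tom1, counted among the 13, had -0.13. Whether it is the iron gene of that name was not checked. The summed root markers without IRT1 (2 genes) correlated with NAS2 at -0.09 over the lines, the shoot markers at -0.07 and the endosperm markers at -0.10. Replicates of the root genes correlated at only 0.17 (Pht1;8) and 0.22 (Lsi1), and those of the endosperm genes at 0.08 to 0.19. Root and endosperm sums that reproduce this weakly cannot show whether a relation exists, and nothing is read from them. Within the shoot list, GLK1, a transcription factor of chloroplast development, correlated with NAS2 at -0.51, and the part of this in the NAS2 group was not tested.

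The 3 probe sets resting on RIL084 formed the only other group of at least 3, which was no longer joined without that line. A further 4 pairs were joined, among them HSP81-3 with Os.22573.1.S1_x_at at 0.986 in replicate 2 and 0.983 in replicate 1. A suffix of x_at or s_at marks probes that can bind several similar transcripts, and whether the 2 probe sets of that pair share signal was not tested. OsAffx.17611.1.S1_at and OsAffx.29775.1.S1_at correlated at 0.934 in replicate 2 and 0.969 in replicate 1. LOC4331569 on chromosome 3 and OsAffx.12732.1.S1_s_at reached 0.817 and 0.954 in the same replicates, and Os.46689.1.S1_at with Os.46805.1.S1_at 0.783 and 0.731.

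The 68 placed members were spread over all 12 chromosomes. Chromosomes 1 and 3 held 11 each and chromosome 6 held 9, or 13.2% of the placed members against 8.29% of the placed line-variable probe sets and 7.84% of the placed tested ones. Chromosome 2 held 2 members (2.94%), against 5.84% of the line-variable and 11.9% of the tested probe sets. Chromosome 5 held 6 (8.82%), against 4.52% of the line-variable probe sets, and chromosome 11 also 6, against 10.9%. Chromosome 10 held 1, LOC4349365. With counts this small, these shares are a description.

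**Figure D4:**
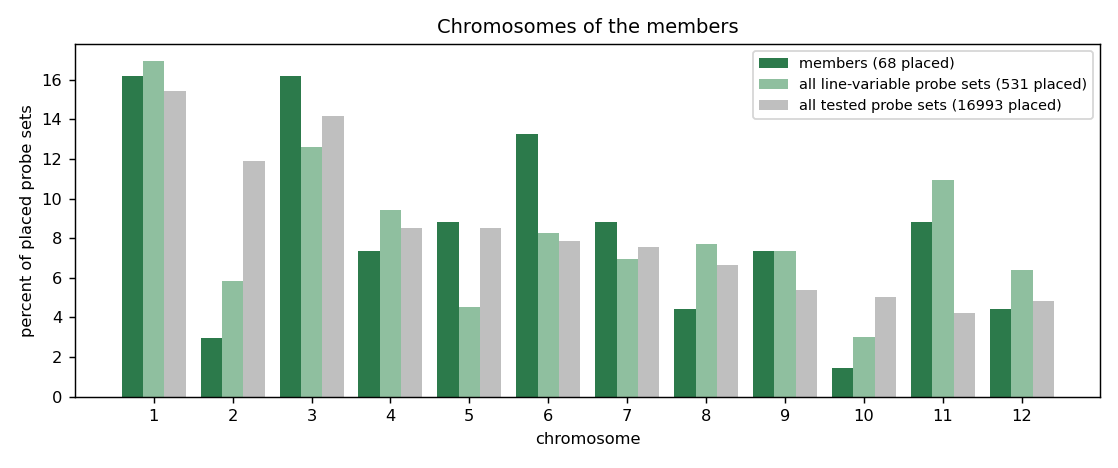
Share of placed probe sets on each of the 12 chromosomes (y axis, percent) for the 68 placed members, the 531 placed line-variable probe sets and the 16993 placed tested ones. The bar of the members is above the other bars on chromosome 6 and below them on chromosome 2.

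The level of the lines against the mid-parent was tested with limma across all tested probe sets (Benjamini-Hochberg adjusted p under 0.05). Among the 96 members with at least 1 parent at or above 5, 18 were higher in the lines (18.8%), against 9.22% of the tested probe sets with such a parent, and 18 were lower (18.8%), against 9.4%. Members were chosen for line variation that is large against the differences between replicates, which are part of the error of this test. More of them can therefore pass, and nothing is read from the excess. The other 15 members had both parents under 5 and passed the minimum mean only through the lines, so they had to differ, and 11 of them were called higher. With these included, 29 members were higher, against 10.7% of all tested, and 18 lower, against 9.07%, from which nothing is read. With the replicate number as a term, 31 were higher and 20 lower, against 16.5% and 14.8% of all tested. The count depended on the line arrays used. With replicate 2 alone 72 members were called (64.9%), against 54.6% of all tested, and with replicate 1 alone 65 (58.6%), against 60.7%. The sources used here do not say whether parents and lines were grown and hybridised together, and the part of this in the difference was not tested.

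NAS2 was higher in the lines than the mid-parent by 2.29 ± 0.43 (SE, limma adjusted p = 1.81e-05), LOC4334129 by 1.51 ± 0.14 (7.46e-17) and LOC4324944 by 1.49 ± 0.21 (9.95e-09). OsAffx.17611.1.S1_at was higher by 1.23 ± 0.23 (1.54e-05) and MADS58 by 0.71 ± 0.20 (4.66e-03), both by limma. MADS58 had line means from 4.80 to 8.53 with a median of 6.75, against 5.67, 5.92 and 7.02 in Minghui 63 and 6.06, 5.69 and 6.03 in Zhenshan 97. The third Minghui 63 array lay above the median line, and the call for MADS58 was lost without the first Minghui 63 array. LOC4349365, LOC4325750, LOC4332187, OsAffx.19820.1.S1_at and IRT1 had both parents under 5 and are described without a test. LOC4349365 measured 4.03 to 7.50 in the lines with a median of 5.67, against 3.68, 3.66 and 3.93 in Minghui 63 and 3.73, 3.17 and 3.62 in Zhenshan 97, so no line mean overlapped a parental array. LOC4332187 measured 3.68 to 8.81 in the lines with a median of 4.98, against 3.57, 3.70 and 3.55 in Minghui 63 and 3.63, 3.58 and 3.98 in Zhenshan 97. The parental means of LOC4349365, LOC4332187, OsAffx.19820.1.S1_at and IRT1 were at or under the highest Tag control, 4.63, so a difference from them has no measured lower end.

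The largest decreases were those of Os.18480.1.S1_at, which fell by 1.35 ± 0.30 (SE, limma adjusted p = 2.78e-04), LOC4337488, which fell by 1.29 ± 0.34 (2.69e-03), and LOC4345492, which fell by 1.11 ± 0.39 (0.0312). For Os.18480.1.S1_at the value is a mean over the separate clusters given above, in which most lines lay with the parents. LOC4350287 on chromosome 11 fell by 1.05 ± 0.12 (1.28e-11). Its line means ran from 7.28 to 9.06 with a median of 8.28, against 9.15, 9.29 and 9.43 in Minghui 63 and 9.15, 9.35 and 9.42 in Zhenshan 97, so the lines lay below every parental array. LOC4343418 on chromosome 7 fell by 1.02 ± 0.31 (0.0117).

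XBOS35 fell by 0.51 ± 0.14 (SE, limma adjusted p = 3.29e-03), with line means from 8.19 to 9.81 and a median of 9.23, against 9.51, 9.78 and 9.74 in Minghui 63 and 9.60, 9.90 and 9.41 in Zhenshan 97. YSL6 fell by 0.26 ± 0.09 (0.0358), with line means from 9.08 to 10.56 and a median of 9.99, against 10.23, 10.14 and 10.31 in Minghui 63 and 10.09, 10.13 and 9.96 in Zhenshan 97. The call for YSL6 was lost when the replicate number was a term, when arrays were centred on their medians, and without any single parental array other than the third of Zhenshan 97. The other 5 named members did not pass: SD1 at -0.52 (adjusted p = 0.125), KO2 at -0.21 (0.168), HSP81-3 at -0.11 (0.612), PSK2 at -0.07 (0.831) and rcs1 at 0.09 (0.482), all by limma. SD1 was called with the replicate number as a term (-0.63), with arrays centred on their medians (-0.56) and with replicate 1 alone (-0.89), while it had -0.16 with replicate 2 alone.

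SD1 had line means from 5.47 to 7.58 with a median of 6.29, against 6.51, 6.67 and 6.58 in Minghui 63 and 7.17, 7.41 and 6.66 in Zhenshan 97. KO2 had line means from 5.88 to 7.36 with a median of 6.59, against 6.54, 6.57 and 6.70 in Minghui 63 and 7.03, 7.28 and 6.54 in Zhenshan 97. For both genes of gibberellin synthesis the third Zhenshan 97 array lay within or at the edge of the Minghui 63 values, below the other 2. Without that array the parental means of SD1 and of KO2 differed by more than the rule allowed. The equal parents of both genes thus rested on that array. In another probe set of KO2 the parents differed by -0.86 (Minghui 63 minus Zhenshan 97). SD1 and KO2 were 2 of 13 tested genes of the diterpenoid and gibberellin list, in which no further tested gene reached a replicate correlation of 0.6. In that list 3 genes were higher than the mid-parent and 0 lower, with a median of -0.14. PSK2 had line means from 8.47 to 11.54 with a median of 10.67, against 10.62, 10.57 and 10.73 in Minghui 63 and 10.53, 11.02 and 10.58 in Zhenshan 97, so its parents sat amid the lines. HSP81-3 and rcs1 were the most narrow of the named members, with line means from 12.44 to 13.53 and from 10.97 to 12.03.

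The counts of the gene lists stand against 10.7% higher and 9.07% lower over all tested. The iron list had 9 of 13 genes higher and 2 lower, with a median of 0.93. It was chosen with the behaviour of these genes in the same arrays known. Among those higher, NAS1 and IRT1 had both parents under 5 and passed the minimum mean only through the lines, so they had to differ. The chaperone list held 39 tested genes and 1 member, HSP81-3, with 2 genes higher and 5 lower in the lines, near those shares. PDIL1-2, among the 2 higher, also had both parents under 5. The list for oxygen limitation (9 tested) held 0 members, with 0 genes called, and that for peroxide removal (8 tested) held 0 members, with 1 gene higher and 2 lower. Of the shoot markers 2 of 5 were higher. Among markers of other tissues, 2 of 3 root genes were higher, and 1 of 3 endosperm genes was lower. IRT1, which had to differ, was 1 of the 2 root genes.

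Replicate 2 arrays of the lines were set against replicate 1 arrays, a mean difference that a correlation over lines does not read. By limma with the line as a block, 51 members were higher and 44 lower in replicate 2, against 43.7% and 48.5% of all tested. Together 95 of 111 members were called, against 92.2% of all tested, and 6 moved by at least 1 log2 unit, against 16.1%. The median absolute shift was 0.308 over the members and 0.457 over all tested. The largest were those of Os.25355.1.A1_at, with a mean of 7.27 in replicate 2 and 6.02 in replicate 1, and of LOC4325750, with 5.72 in replicate 2 and 7.11 in replicate 1. NAS2 had 8.02 in replicate 2 and 8.19 in replicate 1, and IRT1 5.07 in each, and neither was called.

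The near-identical lines were compared on the same line means. Members were chosen for reproducible line variation, so their agreement is given as description. Agreement was 1 minus the mean squared difference within the 11 pairs over that expected of unrelated lines, so that 1 means equal lines and 0 means no likeness. Its median was 0.826 over the members, 0.907 over the other line-variable probe sets and 0.460 over all tested. At least 0.8 was reached by 65 of 111 members, 640 of the 832 other line-variable probe sets and 1778 of all 27735 tested. Os.18480.1.S1_at had 0.992 and Os.17751.1.S1_at 0.990, close to the median of 0.987 over the marker transcripts described below. The 9 members of the NAS2 group had a median of 0.739, between 0.519 for IRT1 and 0.865, while the other members had 0.829.

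Marker transcripts stood in for genotypes, which were not used here. They were 20 probe sets on 11 chromosomes whose parents differed by at least 2 log2 units, whose replicates correlated at 0.8 or more, and whose line means correlated at 0.7 or more with a gene at most 150 genes away. At most 3 were used per chromosome. Each was scaled so that Minghui 63 was 1 and Zhenshan 97 was 0. In limma fits of line means on each marker (adjusted over all probe sets and markers), 56 members were called with at least 1 marker, against 9.84% of all tested. Since members were chosen for reproducible line variation, more of them can pass. By the sign of the slope, 32 were higher toward Minghui 63 and 25 toward Zhenshan 97, with 1 in both directions, against 0.123% of all tested. The fit of single arrays with the replicate number as a term called 89 members, against 21.6% of all tested, and 23 of them in both directions, against 1.65%. That fit assumes 1 correlation of 0.0766 between the arrays of a line for every probe set, while the members were chosen at 0.6 or more. Of 31 called members with a chromosome, the strongest marker was on the same chromosome in 27.

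A wider set of 45 markers on all 12 chromosomes, with limits of 1 on the parental difference and 0.7 on the replicate correlation, was added after these values were seen. It called 92 members, against 27.3% of all tested, and 8 in both directions, against 1.5%. The strongest marker lay on the chromosome of the member in 46 of 55 placed members, with a median of 198.5 genes between them. In 35 members its absolute r was at least 0.7. One member, LOC4347149 on chromosome 9, shares its gene with its marker, which another probe set measured, and the 2 probe sets correlated at 0.910 although their parental differences were 0.21 for the member and 4.59 for the marker.

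In those 35 members the line means differed between the marker's ends by a median of 0.671. The parents differed by a median of 0.287, a difference that the rule held under 0.5. Both parents were nearer the lines fitted at the Zhenshan 97 level of the marker in 18, both nearer the Minghui 63 level in 9, each nearer its own level in 7 and each nearer the other in 1. Parents held this close tend to fall nearer the same end, so the 18 and the 9 follow in part from the rule. OsAffx.19820.1.S1_at followed a marker on chromosome 12 with an r of 0.94, with fitted levels of 7.83 at the Minghui 63 end and 2.63 at the Zhenshan 97 end. Minghui 63 itself averaged 3.55 and Zhenshan 97 3.64, so Minghui 63 lay with the other end. OsAffx.17611.1.S1_at followed a marker on chromosome 9 with an r of 0.82 and fitted levels of 7.42 and 5.50 at the Minghui 63 and Zhenshan 97 ends. Its parents averaged 5.26 in Minghui 63 and 5.31 in Zhenshan 97. XBOS35 followed a marker 10 genes away on chromosome 8 with an r of -0.87. Its fitted levels were 9.30 at the Minghui 63 end and 9.61 at the Zhenshan 97 end, while Minghui 63 averaged 9.68 and Zhenshan 97 9.64. Both fitted levels lay above the median line, so the parental levels of this marker do not span the lines. At LOC4345104, a marker of the set of 20 on the same chromosome (r -0.80), the fitted levels were 8.73 and 9.49 at the same ends.

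**Figure D5:**
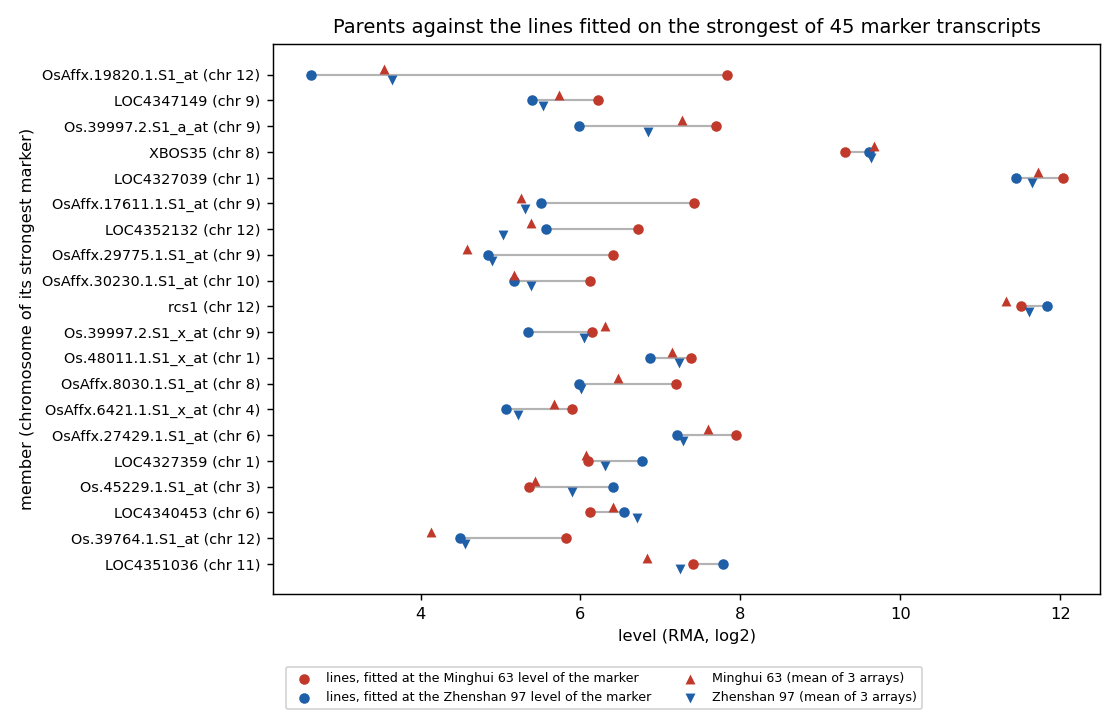
Levels (x axis, log2) of the 20 members with the strongest correlation with 1 of 45 marker transcripts, 1 row each with the chromosome of the marker. Circles are the lines as fitted at the Minghui 63 (red) and Zhenshan 97 (blue) level of the marker, and triangles the parental means of 3 arrays in the same colours. For OsAffx.19820.1.S1_at the circles are 5.21 apart while both triangles lie toward the blue end.

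Several members, named after their values were seen, followed the same stretch of chromosome 1. LOC4327039 was higher toward Minghui 63 at marker LOC4327891, with an r of 0.83 and 52 genes between them. LOC4327359 (-0.76), LOC4327011 (-0.74), LOC4327869 (-0.72) and LOC4327578 (-0.71) on the same chromosome were higher toward Zhenshan 97, with 165 to 307 genes in between, and so was the unplaced Os.53115.1.S1_at (-0.65). LOC4327039 correlated with LOC4327359 at -0.688 in replicate 2 and -0.828 in replicate 1. Opposite directions at 1 stretch thus occurred among members with equal parents. At this marker 9 members were called, 1 higher toward Minghui 63 and 8 toward Zhenshan 97, against 1.2% of all tested.

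For the 8 members called with markers in both directions, line means were also fitted on the strongest marker of each direction and their product, as a description without a test. Os.18480.1.S1_at was higher toward Minghui 63 at a chromosome 9 marker (r 0.52) and toward Zhenshan 97 at a chromosome 4 marker (r -0.38). The fitted level was 7.38 where the chromosome 9 marker was at the Zhenshan 97 level and the chromosome 4 marker at the Minghui 63 level, and 11.13 in the opposite combination. With both markers at the parental combination it was 10.33 for Minghui 63 and 10.52 for Zhenshan 97, and the parents averaged 10.46 and 10.92. The 2 markers accounted for 40.3% of the variance of the line means, and 46.1% with their product. MADS58 was higher toward Minghui 63 at a chromosome 7 marker (0.34) and toward Zhenshan 97 at a chromosome 8 marker (-0.43), with 26.7% of the variance accounted for and 32.7% with the product. Its fitted levels at the combinations of Minghui 63 and Zhenshan 97 were 7.09 and 6.95, above the parental means of 6.20 and 5.93. Os.53115.1.S1_at reached 61.7% and 62.3% with markers on chromosomes 9 and 1. The fitted level of Os.53115.1.S1_at was 4.49 in the low and 5.94 in the high nonparental combination, against 5.24 and 5.42 in the combinations of Minghui 63 and Zhenshan 97. The parents themselves averaged 4.78 and 4.87, below both of those and toward the low combination.

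The NAS2 group had no absolute r above 0.387 with any of the 45 markers. NAS2 reached an absolute r of 0.312 at most (limma adjusted p = 0.0725), on chromosome 4, and LOC4324944 0.256 (0.190). IRT1 was called at an r of -0.38 (7.50e-03) and LOC4332187 at -0.34 (0.0393), both with the same marker on chromosome 4, LOC4335019. In all, 6 of the 9 were called with a marker. There were 19 members called with none of the 45 markers, among them NAS2, LOC4324944, LOC4334129, all 5 opposed members, Os.17751.1.S1_at and the 3 resting on RIL084. The markers leave parts of the genome unread, so a missing call does not show that no locus acts.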

How the data were processed

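Values were the log2 expression values deposited by the authors, 1 per probe set and array, made by RMA with the affy package per the submitters' processing notes. RMA corrects background, normalizes arrays by quantiles and summarises probes, so differences in total RNA are not kept. For these tools, versions were not given in the sources used here. Precision is limited by the number of arrays.

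Replicates are biological per the labels, and groups follow the labels. Members and gene lists were chosen with earlier results of these data known. Gene names, chromosomes and gene order came from GEO's platform annotation and a RefSeq table (assembly ASM3414082v1). The members named are those with a usable gene name, the leaders of correlated groups, the largest called changes in each comparison, those nearest the limits of the rule and those in the gene lists; others named for their markers or gaps were chosen after their values were seen.

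Line mean against mid-parent, replicate 2 against replicate 1 and slopes on marker transcripts were fitted with limma 3.58.1 in R 4.3.3 over 27735 probe sets of mean 5 or more, with Benjamini-Hochberg adjustment at 0.05. All 3 fits were tested on simulated data. Other values were computed in Python 3.11.15 with numpy 2.4.6 and pandas 2.3.3.

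Replicate numbers pair the arrays of the lines: the difference of replicate 2 from replicate 1 correlated with that of the other lines above 0.1 in all 110 lines (lowest 0.175, median 0.857). Numbers were not taken to pair lines with parents. The same difference correlated with that of the lines at 0.494 for Zhenshan 97, so those arrays shared it in part, but at -0.008 for Minghui 63, and parental arrays of the same number correlated at -0.307, -0.066 and -0.391. Alternatives changed the limits of the rule, the centring, the lines and arrays used and the markers.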

Additional observations from a re-analysis of the deposited data

How the results depend on the processing

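The number of members was 202 with no minimum mean, 50 with a mean of at least 7, 37 with a correlation of at least 0.7 and 40 with a parental difference under 0.25, against the count with all limits as given. Other settings kept a similar count but exchanged members. Without Minghui 63 replicate 3 the rule gave 103 probe sets, 86 of them members, the fewest for any parental array left out. Leaving out Minghui 63 replicate 2 gave 115, with 106 members, the most. Arrays centred on their medians gave 111, with 97 members, and a Spearman correlation 115, with 95. With a mean of at least 7, 23 members were called against the mid-parent (8 higher), 43 between replicates, 24 with a marker and 0 with markers in both directions. Leaving out 1 array of a parent or 1 replicate of the lines gave 36 to 72 members called against the mid-parent, 22 to 43 higher and 14 to 29 lower. The share of all tested probe sets called lay between 13.6% and 60.7% over the same settings. Without replicate 1 of the lines 29 were lower and without replicate 2, 28. With a marker, 49 to 61 were called without 1 replicate, and 1 to 4 in both directions. With the replicate block, 89 were called with a marker and 23 in both directions, and YSL6 (-0.26) lost its call while SD1 (-0.63) gained one. Taking the next best marker of each stretch gave 2 in both directions. The wider marker set, chosen after seeing the data, gave 92 and 8. Correlated groups numbered 6 at a correlation of at least 0.6 and 1 without line RIL084, also chosen after seeing the data. Without RIL139, 46 members were called against the mid-parent. Against the mid-parent, PSK2 had 0.11 without replicate 1 and 0.0028 without Zhenshan 97 replicate 2, and -0.26 and a call without replicate 2 of the lines (-0.07 with all arrays). HSP81-3 had 0.0705 without replicate 2 and -0.2911 without replicate 1 (-0.11 with all arrays). The cause of these differences was not tested. The call of LOC9268308 was lost without any 1 parental array.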
